A study of Mus musculus with 16 samples.

Results

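The genes of the synaptic vesicle and its release machinery were examined in the cerebral cortex of 5xFAD mice fed rapamycin or a control diet. The set held 38 genes, chosen by name and kept where at least 4 of the 16 libraries had 10 or more read pairs. All 38 met this rule, out of 16723 genes that did so among the 47593 in the table, and all 38 were among the 16553 genes tested. RNA was sequenced after poly(A) capture from 4 groups of 4 libraries each, in which females and males were fed either vehicle or rapamycin. Rapamycin mice ate a diet with microencapsulated rapamycin, an inhibitor of the mTOR kinase, at 14 ppm active compound, and vehicle mice ate the same diet with the empty carrier, both from 2 to 5 months of age. Every mouse was a heterozygous 5xFAD animal on a C57BL/6-SJL hybrid background. These mice carry transgenes driven by the neuronal Thy-1 promoter and develop amyloid plaques, and no group without the transgenes was compared here. The labels number the libraries within each group but do not say that each is a separate mouse, so p-values measure only the spread between these libraries, which may in part be technical.

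At a presynaptic terminal, neurotransmitter is packed into vesicles that dock and are primed at the active zone, a protein scaffold opposite the postsynaptic membrane. Calcium entry is sensed by synaptotagmins, and the SNARE proteins of the vesicle and the plasma membrane then zip together and fuse the membranes. The vesicle membrane is afterwards taken back by endocytosis and refilled. Most of these proteins are abundant in all cortical neurons, while some family members differ between neuron classes and brain regions. In bulk tissue, fewer cells of a type and less RNA per cell cannot be told apart.

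Each library held between 16393501 and 20593089 counted read pairs, and the 38 genes together took between 1.96% and 2.39% of them. This share was 2.29% ± 0.0484 (SD, n = 8) in vehicle and 2.16% ± 0.133 (SD, n = 8) in rapamycin libraries. By the labels, batch 1 held 11 libraries and batch 2 held the other 5. The library labelled male rapamycin 4 went against its sex label, with 9935 read pairs on Xist and 0 summed over 4 genes of the Y chromosome (Uty, Ddx3y, Eif2s3y and Kdm5d). It was kept under its label, and results are also given without it. Mitochondrial genes took 2.64% to 5.47% of read pairs in vehicle libraries and 3.75% to 6.99% in rapamycin libraries. The 3 libraries with the highest shares, female rapamycin 1, female rapamycin 2 and male rapamycin 2 (6.88% to 6.99%), also had the lowest exon length slopes (-0.127 to -0.121). The slope describes, within a library, how far genes lie from their average log2 CPM as log2 exon length grows, so that a library with a negative slope reads low for genes with long exons. Its mean was 0.0442 ± 0.0398 (SD, n = 8) in vehicle and -0.0442 ± 0.0714 (SD, n = 8) in rapamycin libraries.

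Levels of the genes are compared as TPM, which divides read pairs by exon length, as means over the 16 libraries. The most abundant member was Slc17a7, the vesicular glutamate transporter VGLUT1 of most cortical excitatory neurons, at 1831 TPM ± 252 (SD, n = 16). It was followed by Snap25, a plasma membrane SNARE, at 1212 TPM ± 140 (SD, n = 16) and by Cplx1, which encodes complexin 1, a clamp and helper of the SNARE complex, at 1110 TPM ± 200 (SD, n = 16). Snap25 and Cplx1 ranged from 971 to 1469 TPM and from 684 to 1395 TPM over the libraries, so that their order did not exceed their spread. Dnm1, the dynamin that pinches off vesicles during retrieval, had 992 TPM ± 160 (SD, n = 16), Rab3a, the vesicle GTPase, 866 TPM ± 88.3 (SD, n = 16) and Vamp2, the main vesicle SNARE, 836 TPM ± 73.1 (SD, n = 16). These 3 genes also overlapped in range.

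Among the vesicle proteins, Syp (synaptophysin) had 686 TPM ± 74.7 (SD, n = 16) and Syn1 (synapsin 1, which tethers vesicles) 609 TPM ± 105 (SD, n = 16), and their ranges overlapped. Syn3 was the least abundant of the 38 genes at 2.55 TPM ± 1.02 (SD, n = 16), with 87 to 263 read pairs per library. Syt1, the main fast calcium sensor, had 653 TPM ± 110 (SD, n = 16) and Syt11, a synaptotagmin that does not bind calcium, 594 TPM ± 85 (SD, n = 16).

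The active zone genes were less abundant than most vesicle and SNARE genes, and the highest of the 8 had a mean of 138 TPM. Rims1 (138 TPM ± 44.6, SD, n = 16), Bsn (125 TPM ± 63.2), Rims3 (118 TPM ± 46.2) and Unc13a (106 TPM ± 46.8) did not differ beyond their spread. Rims1 and Rims2 encode RIM scaffolds that recruit calcium channels and vesicles, Rims3 a short RIM, Bsn and Pclo the giant scaffolds bassoon and piccolo, and the Unc13 genes the Munc13 proteins that prime vesicles for fusion. Unc13c and Unc13b stood lowest in this class, at 12.8 TPM ± 8.12 and 9.19 TPM ± 4.02 (SD, n = 16), with overlapping ranges.

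**Figure D1:**
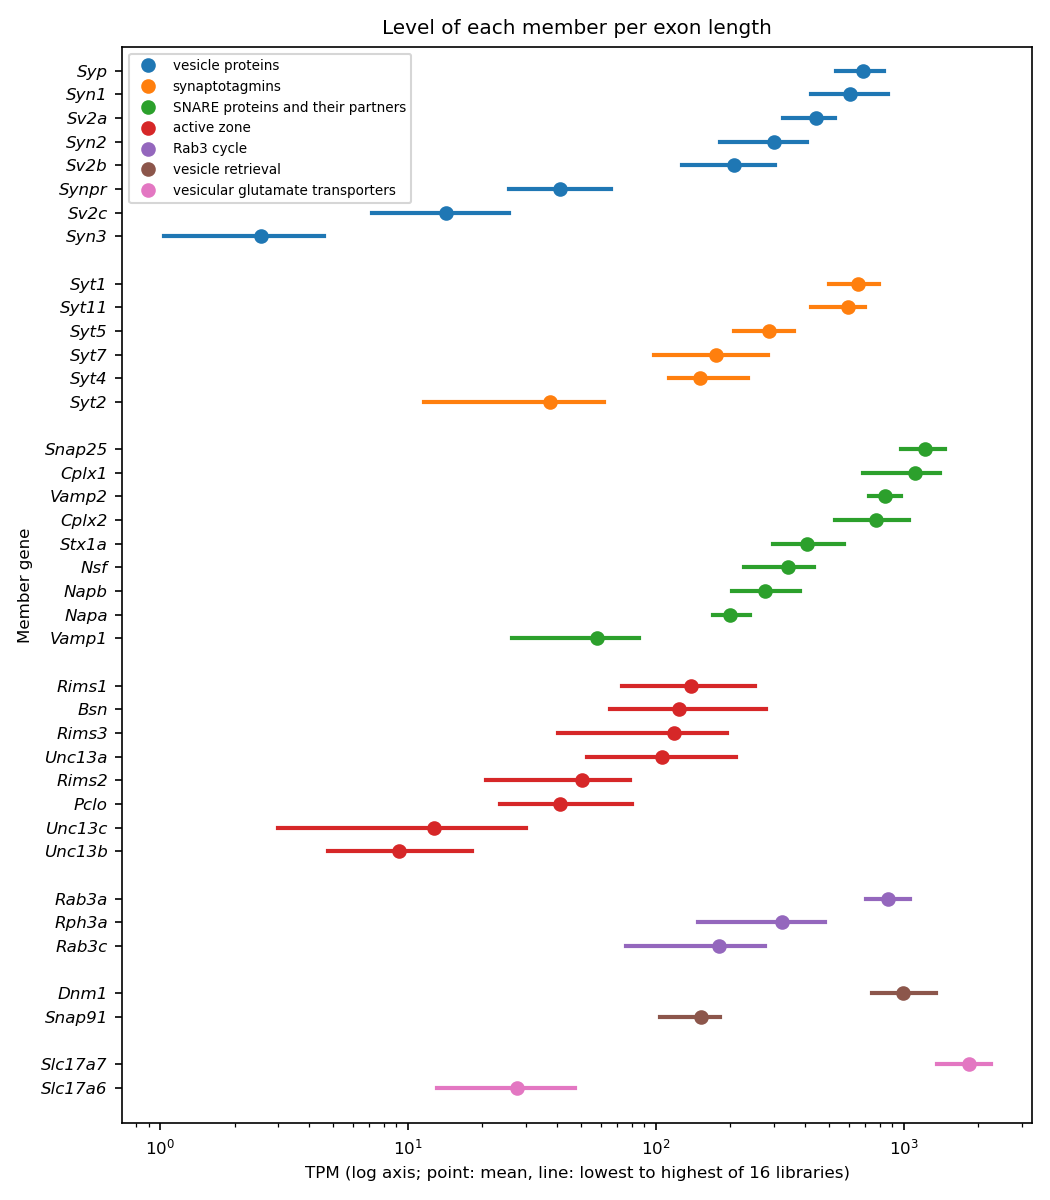
Level of each of the 38 genes in TPM on a log axis, by role, with the mean (point) and the lowest to highest of 16 libraries (line). Slc17a7 stood highest at 1831 TPM and Syn3 lowest at 2.55 TPM, and the 8 active zone genes lay between 9.19 and 138 TPM.

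Within families, the ratio of one member to another on the TPM scale differed between libraries, to an extent that depended on the pair. For each 100 TPM of Vamp2 there were between 3.56 (female rapamycin 1) and 10.2 (male vehicle 1) of Vamp1, with a median of 6.40. For each 100 TPM of Syt1 there were 2.23 (female rapamycin 1) to 11.1 (female rapamycin 4) of Syt2, and for each 100 of Slc17a7 there were 0.588 (female rapamycin 1) to 3.07 (female rapamycin 4) of Slc17a6. Female rapamycin 1 thus held the lowest value of all 3 ratios. The ratio of Cplx1 to Cplx2 ran from 93.9 to 231 per 100, so that either complexin could be the more abundant. That of Rims2 to Rims1 ran from 24.9 to 47.9 per 100, and that of Unc13b to Unc13a from 6.32 to 12.3 per 100. The ratio of Syn3 to Syn1 had a median of 0.489 per 100 in vehicle and of 0.319 per 100 in rapamycin libraries.

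With both sexes in the fit, 6 of the 38 genes fell with rapamycin and none rose. The genes that fell were Syn3, Unc13a, Pclo, Rims2, Rims1 and Sv2a. They included 4 of the 8 active zone genes and 2 of the 8 vesicle proteins, and none of the SNARE genes, synaptotagmins, Rab3 cycle genes, retrieval genes or glutamate transporters passed. The falls were 0.20 to 0.66 on the log2 scale, and Syn3 alone also reached a fold change of 1.5.

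The test was the quasi-likelihood test of edgeR with terms for sex, batch and treatment, and a gene passed at a Benjamini-Hochberg adjusted p under 0.05 over all 16553 genes. Of all genes tested, 6.86% fell and 6.46% rose by the same rule, and 1.57% fell with a fold change of at least 1.5. The 6 genes were 15.8% of the 38 members, and 15 members had an unadjusted p under 0.05 (12 lower and 3 higher), as 30.4% of all genes did. DESeq2 called 11 members, 10 lower and 1 higher (Vamp2), and 18.9% of all genes. Of the 38 genes, 26 (68.4%) had a log2 fold change below 0, against 47.7% of all genes, and the median was -0.12 against 0.02 over all genes. The number that passed was not stable to the processing: with either the exon length slope or the share of mitochondrial read pairs as a covariate, without the 3 libraries with the highest mitochondrial share, or without the batch term, 0 of the 38 passed in edgeR, with 1, 4, 7 and 9 members at an unadjusted p under 0.05. In the same order, 965, 1318, 2216 and 3322 of all genes had such a p, and 0, 1 and 142 (0.858%) passed with either covariate, without the 3 libraries and without the batch term. All genes tested numbered 17233 without the 3 libraries and 16553 in the other fits. Without the batch term the values were of similar size, at -0.57 for Syn3, -0.44 for Pclo, -0.43 for Unc13a, -0.39 for Rims2, -0.31 for Rims1 and -0.22 for Sv2a. With the mitochondrial share as a covariate they were -0.48 for Pclo, -0.47 for Syn3, -0.29 for Unc13a, -0.28 for Rims2, -0.13 for Rims1 and -0.10 for Sv2a. Without the library labelled male rapamycin 4, 4 members passed (Syn3, Unc13a, Rims2 and Sv2a), and 9.44% of all genes. With a term for the replicate number of the labels in place of batch, 3 members passed (Syn3, Unc13a and Rims2), and 7.84% of all genes.

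**Figure D2:**
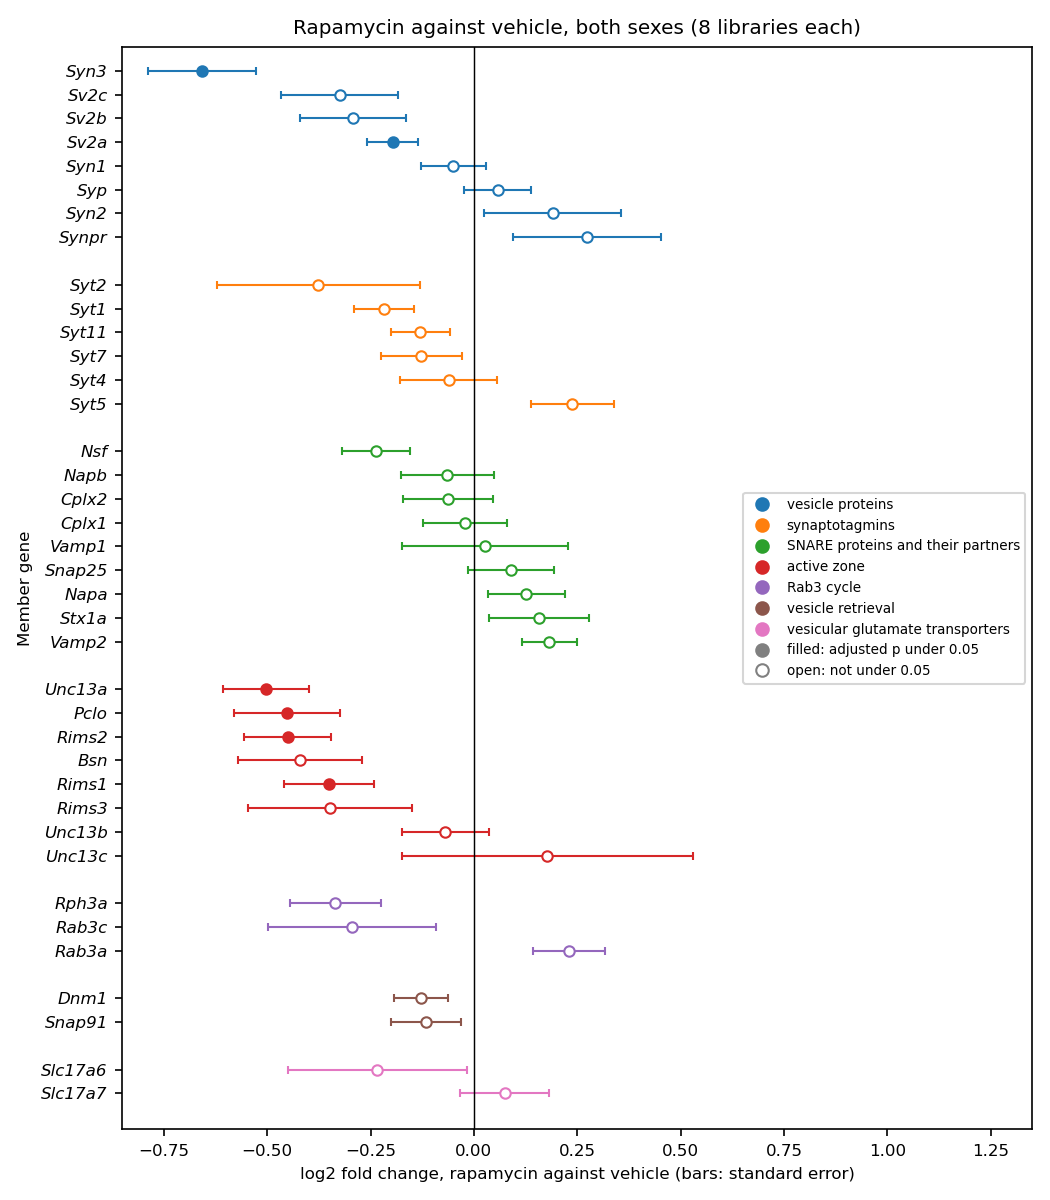
log2 fold change (rapamycin against vehicle, both sexes, 8 libraries each) of each of the 38 genes by role, with bars for the standard error and filled points for an adjusted p under 0.05 in edgeR. The 6 filled points lie between -0.66 (Syn3) and -0.20 (Sv2a), and 4 of them are active zone genes.

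The active zone class had the lowest median of the 7 roles, at -0.39 on the log2 scale, and 7 of its 8 members had a value below 0. Promoter sequence was at hand for 3 of its 4 genes that fell, Unc13a, Pclo and Rims1, and for the vesicle protein gene Sv2a, and these are shown because each of the 4 genes fell in the joint fit. Each is the RefSeq window from 250 bases before to 50 bases after the annotated start (GRCm38.p6), written 5′ to 3′ on the strand of the gene, with Unc13a at chr8:71671708-71672007 (minus strand), Pclo at chr5:14514668-14514967 (plus), Rims1 at chr1:22806109-22806408 (minus) and Sv2a at chr3:96180977-96181276 (plus). Capitals mark the GC box GGGCGG, a letter string bound by Sp-family factors, on either strand, and in Unc13a also the left block (TTCAGCACC) and right block (GGACAGC) of the RE1 element, the site of the neuronal gene repressor REST. None of the marked strings overlap.
Unc13a: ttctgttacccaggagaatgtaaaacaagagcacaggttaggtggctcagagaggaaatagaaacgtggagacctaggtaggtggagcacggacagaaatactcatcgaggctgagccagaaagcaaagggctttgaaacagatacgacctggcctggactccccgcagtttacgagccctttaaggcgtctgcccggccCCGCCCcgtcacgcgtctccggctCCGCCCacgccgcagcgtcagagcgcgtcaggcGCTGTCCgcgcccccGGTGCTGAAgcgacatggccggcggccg
Pclo: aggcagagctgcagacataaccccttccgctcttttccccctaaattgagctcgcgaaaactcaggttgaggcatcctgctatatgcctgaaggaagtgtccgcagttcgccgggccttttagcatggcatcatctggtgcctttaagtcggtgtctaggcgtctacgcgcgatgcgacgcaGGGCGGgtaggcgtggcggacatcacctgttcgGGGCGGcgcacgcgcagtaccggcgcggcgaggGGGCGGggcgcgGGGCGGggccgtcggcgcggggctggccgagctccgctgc
Rims1: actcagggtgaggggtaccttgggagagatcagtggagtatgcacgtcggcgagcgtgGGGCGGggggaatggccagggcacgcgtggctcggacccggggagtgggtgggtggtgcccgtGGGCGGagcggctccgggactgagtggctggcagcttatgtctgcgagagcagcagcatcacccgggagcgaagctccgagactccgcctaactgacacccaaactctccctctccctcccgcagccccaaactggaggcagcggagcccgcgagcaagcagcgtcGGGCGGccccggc
Sv2a: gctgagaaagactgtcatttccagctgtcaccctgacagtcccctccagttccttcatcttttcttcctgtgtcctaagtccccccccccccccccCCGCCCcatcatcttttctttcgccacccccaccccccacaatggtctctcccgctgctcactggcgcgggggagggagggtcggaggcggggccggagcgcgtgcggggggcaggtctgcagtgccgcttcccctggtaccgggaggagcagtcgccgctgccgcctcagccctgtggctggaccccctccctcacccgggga

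The windows held 2 GC boxes for Unc13a, 4 for Pclo, 3 for Rims1 and 1 for Sv2a. Windows were matched for 31 of the 38 genes (42 windows of 300 bases), and Rims2, Snap25, Syn3, Syt4, Syt5, Syt7 and Vamp2 had no entry. A GC box was present in 27 of the 42 windows (64.3%), against 35.7% of all 32851 windows, and the median GC content was 61.3% against 52.7%. The left RE1 block was present in 2 windows (4.76%), those of Syn1 and Unc13a, against 0.371% of all windows, and the right block in 3 windows (7.14%) of Rph3a and Unc13a, against 6.56%. Unc13a was the 1 member with both blocks in a window. The cAMP response element TGACGTCA was present for Napa and Syn1 (4.76% of windows against 1.79%), and TATAAA only for Sv2b among the members (4.76% against 13.6%). Both strands were searched, and these are matches of letters only.

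Unc13a (chromosome 8, 71624417 to 71671757) encodes the main Munc13 priming factor of excitatory cortical synapses. Its level in vehicle libraries had a lowest value of 338 CPM, a median of 388 CPM and a highest of 700 CPM, and in rapamycin libraries 247, 318 and 560 CPM. In females the 4 vehicle libraries had 380, 391, 384 and 700 CPM and the 4 rapamycin libraries 247, 248, 560 and 424 CPM. In males the vehicle libraries had 374, 460, 338 and 638 CPM and the rapamycin libraries 308, 275, 337 and 327 CPM. The treatments overlapped when batches were mixed, with 6 of 8 rapamycin libraries below every vehicle library. Within each batch, however, every rapamycin library lay below every vehicle library. The margin in batch 1 was narrow, with 337.5 CPM in male rapamycin 3 and 338.3 CPM in male vehicle 3. Female rapamycin 1, female rapamycin 2 and male rapamycin 2, the 3 libraries with the highest mitochondrial share, had the 3 lowest values (247, 248 and 275 CPM). The log2 fold change was -0.50 (SE 0.105, adjusted p = 0.0128), and the difference was -0.46 within batch 1 and -0.65 within batch 2.

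Rims2 (chromosome 15, 39198332 to 39681940) encodes a RIM scaffold of the active zone. Vehicle libraries had a lowest value of 77.2 CPM, a median of 86.1 CPM and a highest of 103 CPM, and rapamycin libraries 38, 70.4 and 87.9 CPM. The 3 lowest values, in female rapamycin 1 (38 CPM), male rapamycin 2 (55.2 CPM) and female rapamycin 2 (56.7 CPM), were those of the 3 libraries with the highest mitochondrial share. Within each batch, the rapamycin libraries lay below every vehicle library. The log2 fold change was -0.45 (SE 0.106, adjusted p = 0.0169).

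Syn3 (chromosome 10, 86055125 to 86498896) encodes synapsin 3, the synapsin most associated with developing and immature neurons. Vehicle libraries had a lowest value of 8.94 CPM, a median of 11.1 CPM and a highest of 14.7 CPM, and rapamycin libraries 4.73, 7.38 and 12.6 CPM. Only female rapamycin 4, of batch 2, reached the range of the vehicle libraries, and 7 of 8 rapamycin libraries lay below all of them. The 3 libraries with the highest mitochondrial share had the 3 lowest values. These were female rapamycin 2 (4.73 CPM), male rapamycin 2 (5.57 CPM) and female rapamycin 1 (5.76 CPM). The log2 fold change was -0.66 (SE 0.131, adjusted p = 0.0119), with -0.71 within batch 1 and -0.57 within batch 2. Of its exon bases, 14.1% are shared with Timp3, and read pairs on shared bases were left out by the counting, which did not use strand.

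Syn3, Unc13a and Rims2 were the 3 members in which every rapamycin library was below every vehicle library of its batch. This held for 1.14% of all genes tested, and the opposite order held for 0 members and 0.743% of all genes. The same 3 genes passed in all 16 fits that left out 1 library each. These fits shared most of their libraries with the fit that picked the genes, so passing in them is not independent evidence. The share of all genes that passed in all 16 is not given here. None of the 3 genes passed with the slope of each library, or its share of mitochondrial read pairs, as a covariate.

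Pclo (chromosome 5, 14514918 to 14863459) had a lowest value of 232 CPM, a median of 290 CPM and a highest of 470 CPM with vehicle, and 196, 226 and 334 CPM with rapamycin. The treatments overlapped, and the 2 highest values, 455 and 470 CPM, were those of the 2 vehicle libraries of batch 2. The log2 fold change was -0.45 (SE 0.128, adjusted p = 0.0296), but the difference was -0.25 within batch 1 and -0.92 within batch 2. Pclo did not pass in a fit of batch 1 alone (-0.25, adjusted p = 0.175), and it passed in 10 of the 16 fits that left out a library. It was lost without female vehicle 3 or 4, female rapamycin 2, male vehicle 4, male rapamycin 2 or the library labelled male rapamycin 4, with an adjusted p of at most 0.0810 among these fits.

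Rims1 (chromosome 1, 22286251 to 22805724) had a lowest value of 255 CPM, a median of 308 CPM and a highest of 471 CPM with vehicle, and 190, 269 and 348 CPM with rapamycin. The groups overlapped, and the 3 lowest rapamycin values again were those of male rapamycin 2 (190 CPM), female rapamycin 1 (214 CPM) and female rapamycin 2 (224 CPM). The log2 fold change was -0.35 (SE 0.109, adjusted p = 0.0417), and Rims1 passed in 5 of the 16 fits that left out a library.

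Sv2a (chromosome 3, 96181151 to 96195521) encodes a vesicle membrane glycoprotein that is the binding site of the drug levetiracetam. It had a lowest value of 556 CPM, a median of 696 CPM and a highest of 749 CPM with vehicle, and 510, 579 and 692 CPM with rapamycin. Of the vehicle libraries, 5 lay above every rapamycin library, and the lowest, at 556 CPM, was female vehicle 4 of batch 2. The log2 fold change was -0.20 (SE 0.0611, adjusted p = 0.0422), and Sv2a passed in 4 of the 16 fits that left out a library. The related genes Sv2b and Sv2c had values of -0.29 (adjusted p = 0.132) and -0.32 (adjusted p = 0.128) and did not pass.

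Rph3a and Syt1 came next by p and did not pass. Rph3a, the Rab3 effector rabphilin, had a lowest value of 396 CPM, a median of 486 CPM and a highest of 591 CPM with vehicle, and 252, 401 and 585 CPM with rapamycin, with a log2 fold change of -0.34 (SE 0.11, adjusted p = 0.0514). Syt1 had 1392, 1858 and 2202 CPM with vehicle and 1220, 1568 and 1985 CPM with rapamycin, with a log2 fold change of -0.22 (SE 0.0729, adjusted p = 0.0546). In both genes the groups overlapped, and with DESeq2 both passed (adjusted p = 0.0197 for Rph3a and 0.0171 for Syt1).

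**Figure D3:**
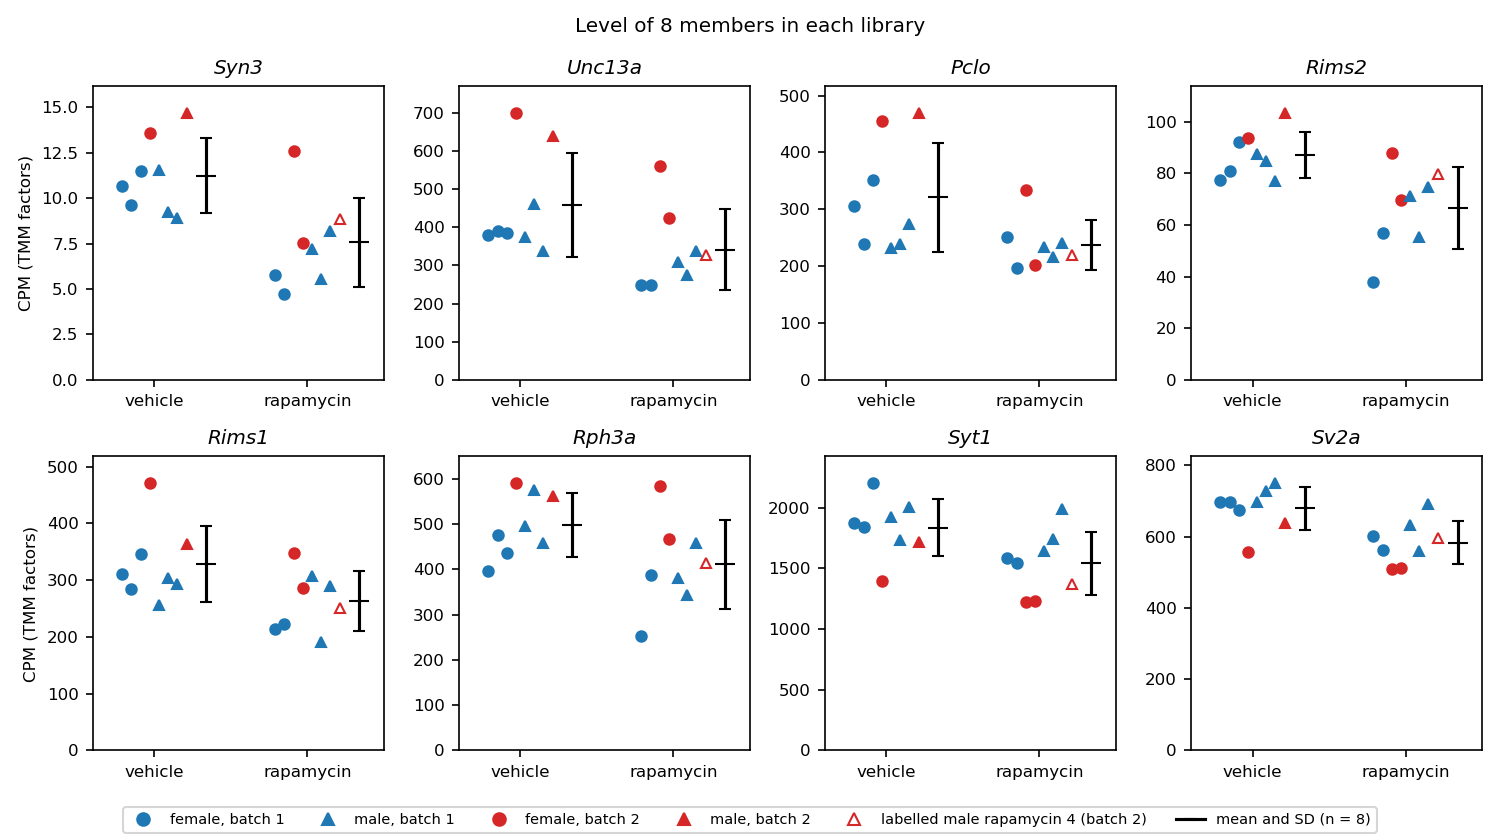
Level in CPM (with TMM factors) of 8 genes in each of 16 libraries, with vehicle on the left and rapamycin on the right of each panel, sex by symbol, batch by colour, and the mean with SD (n = 8) in black. Unc13a ranged from 338 to 700 CPM with vehicle and from 247 to 560 CPM with rapamycin, and the vehicle libraries of batch 2 (red) stood above all others for Unc13a (638 and 700 CPM) and Pclo (455 and 470 CPM).

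Among the active zone genes that did not pass, Bsn had a value of -0.42 on the log2 scale (SE 0.150, adjusted p = 0.0678) and Rims3 of -0.35 (SE 0.198, adjusted p = 0.248). For Bsn the difference was -0.16 within batch 1 and -1.08 within batch 2, where both vehicle libraries (1166 and 1101 CPM) stood far above the 3 rapamycin libraries (781, 511 and 390 CPM). Unc13b had -0.07 (SE 0.105) and Unc13c 0.18 (SE 0.351).

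The SNARE genes and their partners had a median log2 fold change of 0.03 over 9 genes, with 4 below and 5 above 0. Nsf, the ATPase that takes used SNARE complexes apart, had -0.24 (SE 0.0821, adjusted p = 0.0636), and its partner Napb, a SNAP adaptor, had -0.06 (SE 0.112). Vamp2 had 0.18 (SE 0.0661, adjusted p = 0.0725), with 845 to 1038 CPM in vehicle and 866 to 1225 CPM in rapamycin libraries, which overlapped. Snap25 and Stx1a, the plasma membrane SNAREs, had 0.09 (SE 0.104) and 0.16 (SE 0.120), and the complexins Cplx1 and Cplx2 -0.02 (SE 0.101) and -0.06 (SE 0.11).

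The 6 synaptotagmins had a median of -0.13, from -0.38 for Syt2 (SE 0.246), the fast sensor of inhibitory and subcortical terminals, to 0.24 for Syt5 (SE 0.101, adjusted p = 0.120). In the Rab3 cycle, Rab3a had 0.23 (SE 0.0870, adjusted p = 0.0831) and Rab3c -0.29 (SE 0.203, adjusted p = 0.349), so that these GTPases of one family had values on either side of 0, neither of which passed. The retrieval genes Dnm1 and Snap91, an endocytic clathrin adaptor, had -0.13 (SE 0.0652) and -0.12 (SE 0.0845). The glutamate transporters Slc17a7 and Slc17a6 had 0.07 (SE 0.108) and -0.23 (SE 0.216).

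The values followed exon length. Over the 38 genes, Spearman's rho between log2 fold change and exon length was -0.522 (n = 38 genes), and over all 16553 genes it was -0.434. Genes measured in the same libraries share the slope of each library and are not independent. The 6 genes that fell had a median exon length of 9681 bases, the other 32 members of 6878.5 bases, and all genes tested of 3766 bases. The median exon length was 10709.5 bases for the active zone genes and 4928 bases for the SNARE genes and their partners.

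Among genes with exons of 10000 bases or more, 27.4% of all genes fell, and 3 of 6 members did. The medians there were -0.22 for all genes and -0.44 for the members. Between 7500 and 10000 bases, 18.4% of all genes and 0 of 10 members fell in edgeR, with medians of -0.14 and -0.26. Between 5000 and 7500 bases the counts were 9.51% and 2 of 10 members (Rims1 and Rims2), and between 2500 and 5000 bases 3.52% and 1 of 9 (Sv2a). Below 2500 bases, 1.13% of all genes and 0 of 3 members fell, and the medians were 0.19 and 0.23. The median of the members lay below that of all genes in each range of 2500 bases or more. Single members lay above it in each of these ranges, with highest values of 0.18, 0.19, 0.27 and 0.03 from the shortest range to the longest.

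With the exon length slope of each library as a covariate, the log2 fold changes of the named genes were -0.22 for Unc13a, -0.21 for Syn3, -0.17 for Pclo, -0.13 for Sv2a, -0.11 for Rims2 and 0.05 for Rims1, and no gene of the whole table passed. The slope also differed between the treatments, so the part of either in these values cannot be told apart by this fit. Without the 3 libraries with the highest mitochondrial share, the values were -0.49 for Pclo, -0.47 for Syn3, -0.41 for Unc13a, -0.26 for Rims2, -0.20 for Rims1 and -0.15 for Sv2a, none of which passed, and 1 gene of the whole table did.

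**Figure D4:**
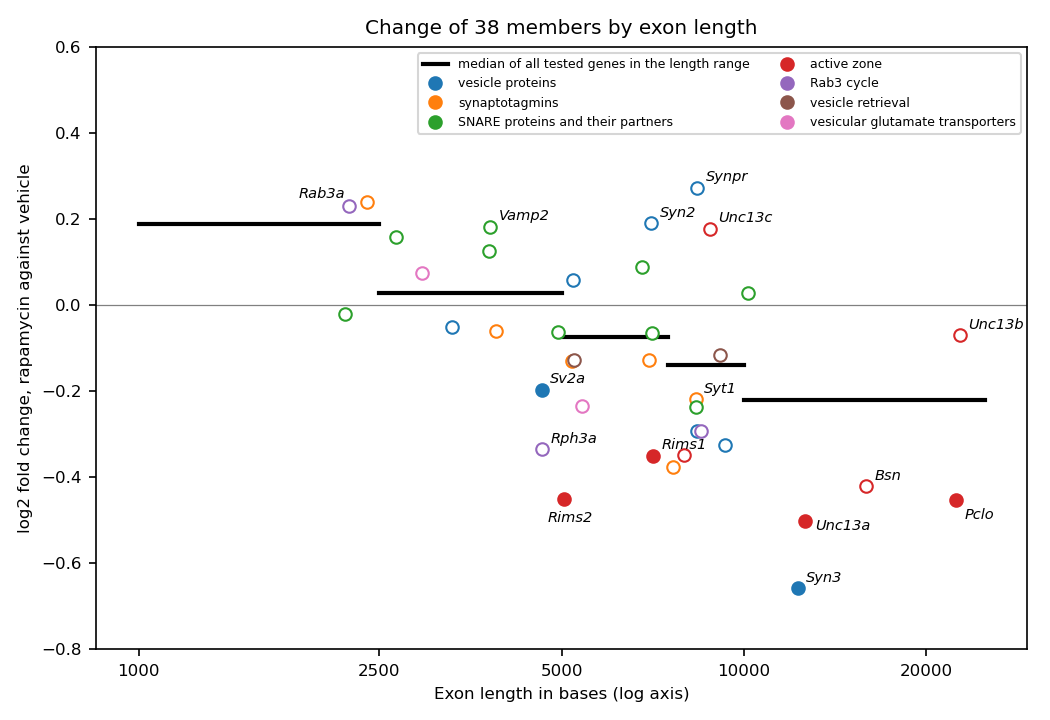
log2 fold change (rapamycin against vehicle, both sexes) of the 38 genes against exon length on a log axis, by role, filled where the adjusted p was under 0.05, with black lines for the median of all tested genes in each length range (the outermost lines stop near the ends of the plotted range). The black medians step down from 0.19 below 2500 bases to -0.22 at 10000 bases or more, and Syn3, Unc13a and Pclo lie under the last line.

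Markers of cortical cell classes were read beside these values. The summed level of 8 markers of cortical glutamatergic neurons was 2853 to 4747 CPM in vehicle and 2586 to 4074 CPM in rapamycin libraries. That of 7 markers of GABAergic neurons was 715 to 960 CPM and 746 to 1035 CPM, and 0 of the 7 passed in edgeR. Most of the glutamatergic sum was Camk2a (2020 to 4176 CPM over the libraries). Most of the astrocyte sum given below was Slc1a2 (2283 to 4689 CPM), so these sums mainly follow 1 gene each. Striatal markers summed to 174 to 271 CPM and 212 to 359 CPM, hippocampal markers to 36.6 to 73.2 CPM and 29.3 to 51.9 CPM, and thalamic markers to 34 to 97.7 CPM and 49.9 to 62.3 CPM. The thalamic genes Gbx2 and Slitrk6 were at 0 in some libraries. Oligodendrocyte markers ranged from 3650 to 5911 CPM in vehicle and from 3631 to 9465 CPM in rapamycin libraries, astrocyte markers from 3241 to 5232 CPM and from 3054 to 5850 CPM, microglial markers from 401 to 714 CPM and from 281 to 567 CPM, and endothelial markers from 196 to 277 CPM and from 191 to 301 CPM. Choroid plexus markers ranged from 13.6 to 1928 CPM in vehicle and from 24.1 to 189 CPM in rapamycin libraries, with 2 of 6 genes lower. The highest sum was that of male vehicle 4, a library of batch 2 in which Bsn, Pclo and Unc13a were also high, with 1740 CPM of Ttr against at most 293 CPM in any other vehicle library. Female vehicle 4, also of batch 2, was likewise high for Bsn, Pclo and Unc13a (1166, 455 and 700 CPM). It had the lowest Ttr of all libraries, at 5.47 CPM. Of the markers tested, 1 of 6 of astrocytes and 1 of 5 of endothelium rose, and none of those of striatum (7), hippocampus (5), thalamus (5), oligodendrocytes (6) and microglia (6) passed in edgeR. The part of cell makeup in the values of the 38 genes was not tested.

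In females alone, 0 of the 38 genes passed in edgeR, as 0.0121% of all genes did, and 12 had an unadjusted p under 0.05, all lower, as 23.1% of all genes did in either direction. DESeq2 called 7 members (Nsf, Pclo, Rims1, Rims2, Syn3, Syt1 and Unc13a) and 9.08% of all genes. In males, 0 members and 0% of all genes passed in edgeR. There, 6 members had an unadjusted p under 0.05 (5 lower and 1 higher), as 12% of all genes did, and DESeq2 called 0 members and 0.163% of all genes. The median log2 fold change of the members was -0.21 in females and -0.05 in males, against 0.02 and 0.01 over all genes.

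Syn3 had -0.76 (SE 0.192, adjusted p = 0.0694) in females and -0.56 (SE 0.186, adjusted p = 0.363) in males, and Unc13a -0.53 (SE 0.155, adjusted p = 0.0800) and -0.48 (SE 0.152, adjusted p = 0.363). Rims2 had -0.58 (SE 0.151) in females and -0.33 (SE 0.145) in males, Rims1 -0.49 (SE 0.153) and -0.21 (SE 0.150), and Pclo -0.55 (SE 0.186) and -0.36 (SE 0.184). Sv2a had -0.21 (SE 0.0911) and -0.18 (SE 0.0892). All 6 genes that fell in the joint fit thus had values below 0 in both sexes. The joint fit that picked these 6 genes used the same libraries, so their shared direction is not independent evidence. The values in males include the library that went against its sex label.

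The difference between the sexes in the rapamycin effect was tested directly, and 0 members and 0% of all genes passed in edgeR. None of the members had an unadjusted p under 0.05, against 2.17% of all genes, and DESeq2 called 0 members. The value (female minus male effect) was -0.21 for Syn3 (SE 0.267), -0.05 for Unc13a (SE 0.218) and -0.28 for Rims1 (SE 0.215). The widest was that of Unc13c, at -1.06 (SE 0.645). Unc13c, a Munc13 known mainly from cerebellum, averaged 29.2 CPM ± 13.1 with vehicle and 27.3 CPM ± 20.3 with rapamycin in females, and 28.4 CPM ± 12.2 with vehicle and 50.2 CPM ± 28.6 with rapamycin in males (SD, n = 4 each), the last group including 76.9 CPM in the library labelled male rapamycin 4. Without that library, 0 members passed in males and 0 in the difference between the sexes, with 5 and 1 at an unadjusted p under 0.05. Of the 16861 genes tested there, 1154 and 528 had such a p.

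Between female and male mice on the vehicle diet, 0 of the 38 genes passed in edgeR, as 0.0121% of all genes did. The gene Cplx1 was the 1 member with an unadjusted p under 0.05, as 3.55% of all genes had, at -0.31 (female minus male, SE 0.145, adjusted p = 0.999), and DESeq2 called 0. Its vehicle libraries had 602, 851, 596 and 666 CPM in females and 946, 874, 839 and 711 CPM in males, which overlapped.

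Between the batches, which were not tested against each other, the ranges of some members were unlike. Bsn lay between 387 and 581 CPM in batch 1, and between 390 and 1166 CPM in batch 2. Unc13b lay between 40.2 and 65.0 CPM in batch 1, and between 67.0 and 109 CPM in batch 2. The share of all genes that differ as far between the batches was not counted. Syt5 had 191 to 316 CPM in batch 1 and 130 to 192 CPM in batch 2, and for Syt5 and Bsn the batches overlapped. Both batches held both treatments, and batch was a term of the tests.

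Some members varied widely between libraries. By the highest over the lowest of all 16 libraries, Unc13c had the widest spread (9.66 to 76.9 CPM) and Syt2 the next (32.4 to 146 CPM). Syt2, Vamp1 and Rims3, chosen after their values were seen, were low together in female rapamycin 1 (32.4, 98.1 and 117 CPM) and in female vehicle 1 (51.4, 117 and 180 CPM), and high together in male vehicle 1 (146, 258 and 406 CPM). Synpr, which encodes synaptoporin, a relative of synaptophysin, was high where these were low, at 188 CPM in female rapamycin 1 and 146 CPM in female vehicle 1, and low at 73.3 CPM in male vehicle 1. Slc17a6, the transporter VGLUT2 of thalamic and other subcortical inputs, had 26.0, 39.7 and 73.3 CPM in the same 3 libraries. By contrast Dnm1, Syt11, Syn1 and Vamp2 varied least, with at most 1.45-fold between the lowest and the highest library (Vamp2).

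**Figure D5:**
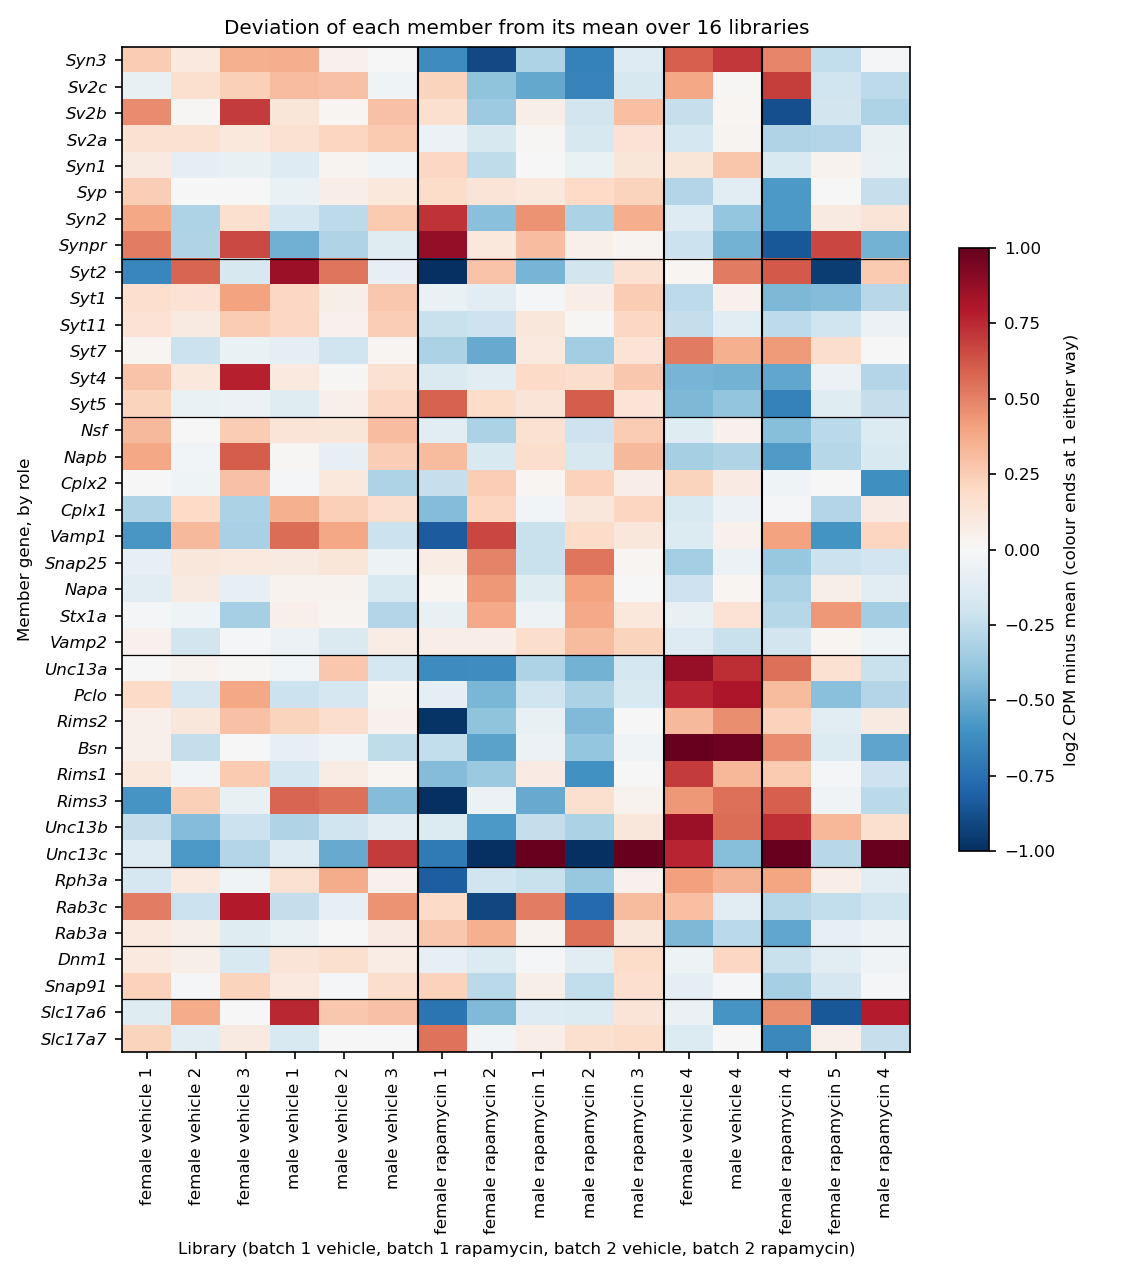
Deviation of each of the 38 genes (rows, by role) from its mean log2 CPM over 16 libraries (columns, grouped by batch and treatment), with red above and blue below the mean and colour ending at 1 either way. The active zone rows are red in female vehicle 4, in female rapamycin 4 and, except Unc13c, in male vehicle 4, all of batch 2. They are mostly blue in female rapamycin 1, female rapamycin 2 and male rapamycin 2 of batch 1. The last column is the library labelled male rapamycin 4.

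A further 50 genes of the same pathway, listed by their roles in docking, priming, endocytosis and transmitter loading, were all tested, and 10 (20%) fell and 1 rose, where 6.86% of all genes fell and 6.46% rose. Their median log2 fold change was -0.09, with 34 values below 0. The 5 largest falls were Stxbp5l, a tomosyn that holds syntaxin away from SNARE complexes (-1.16, SE 0.264, adjusted p = 0.0156), Cadps2, a priming factor of dense-core vesicles (-0.77, SE 0.169, adjusted p = 0.0140), Erc1, an active zone scaffold (-0.50, SE 0.125, adjusted p = 0.0208), Cltc, the clathrin heavy chain (-0.47, SE 0.0844, adjusted p = 0.00971) and Dnm3, a dynamin (-0.40, SE 0.0883, adjusted p = 0.0145).

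Stxbp5l averaged 53.4 CPM ± 10.3 with vehicle and 27.4 CPM ± 16 with rapamycin (SD, n = 8 each), and Cltc fell from 731 CPM ± 73.1 to 524 CPM ± 63.9 (SD, n = 8). The gene that rose was Cltb, a clathrin light chain (0.25, SE 0.0707, adjusted p = 0.0315), from 174 CPM ± 21.1 to 200.5 CPM ± 29.4 (SD, n = 8). The exon lengths of the 5 genes that fell were 8521, 9566, 16271, 8499 and 24452 bases, and that of Cltb was 4868 bases. Of all genes tested with exons between 7500 and 10000 bases, 18.4% fell, and of those with 10000 bases or more, 27.4% fell.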

How the data were processed

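Poly(A) RNA of mouse cortex was sequenced (paired-end, 150 bp). The authors deposited raw counts of read pairs per gene for 16 libraries, with no normalization. Per the labels and the methods, these counts were made with FastQC 0.11.9, Trimmomatic 0.39, HISAT2 2.2.1 (mm10) and featureCounts 2.0.3. The labels also name Trim Galore, which the methods do not, and the build GRCm38.p4. Per the file headers, strand was not used, and pairs overlapping several genes were left out, so overlapping genes can be undercounted.

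Counts were normalized with TMM factors and tested with edgeR 4.0.16 (quasi-likelihood, R 4.3.3) after filterByExpr at a minimum count of 10, with sex, batch and treatment for both sexes, and with 4 groups and batch for the other comparisons. DESeq2 1.42.0 was an alternative. CPM uses TMM factors (log2 CPM with a prior count of 2), and TPM the exon lengths of the table. Figures were drawn with matplotlib 3.10.9. The 38 genes, their roles, the 50 further genes and the 10 marker lists (63 genes) were chosen with earlier results of these data known. For 1 marker gene, values enter the summed level of its list but are not reported here. Genes given in full are members passing in any comparison, filled up to 8 by smallest p, and of the further genes at most the 5 largest passing falls and rises. The tests were tried on simulated counts. Within groups, pairs of libraries differed by a chi-square per degree of freedom of 11.7 to 128, so none was a copy of another. Alternatives were other normalization, no filter, no batch term, batch 1 alone, a replicate block, covariates and leaving out libraries; leaving out the 3 libraries with the highest mitochondrial share, and the counting of genes without overlap within batches, were chosen after seeing the data.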

Additional observations from a re-analysis of the deposited data

Results flagged for a closer look

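A single library stood apart from the other 3 of its group in 8 of the 152 groups of a member gene that were examined, where chance flags about 1 in 20. Of these values, 5 were in the vehicle libraries of batch 2, each the 1 library of its group from that batch. In female vehicle 4, Unc13a had 699.5 CPM (the other 3 libraries 380 to 391 CPM), Bsn 1166 CPM (476 to 581 CPM), Unc13b 109 CPM (44.5 to 51.6 CPM) and Sv2a 556 CPM (674 to 697 CPM). In male vehicle 4, Bsn had 1101 CPM (472 to 549 CPM). The other 3 were low values in libraries of batch 1. In male vehicle 3, Rims3 had 201 CPM (396 to 406 CPM) and Napa 210 CPM (237 to 239 CPM), and in male vehicle 1, Slc17a7 had 1486 CPM (1645 to 1658 CPM).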

How the results depend on the processing

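The number of members that passed in both sexes, 6 at the main settings, was 7 with RLE factors and 4 in batch 1 alone, but 11 with DESeq2, 10 with no filter on low counts, and 0 with no batch term, with a covariate for exon length slope or for mitochondrial share, or without the 3 libraries with the highest mitochondrial share (chosen after seeing the data). Of all genes, 13.5% passed with RLE factors, 7.45% in batch 1 alone, 18.9% with DESeq2, 8.68% with no filter, 0.858% with no batch term and 0.0058% without the 3 libraries. No gene of the whole table passed with either covariate. Leaving out 1 library gave 3 to 12, with 3 without female vehicle 3, female rapamycin 2, male vehicle 4 or male rapamycin 2, 10 without male rapamycin 3, and 12 where female rapamycin 4 was left out, while 13.3% of all genes passed at the main settings, 17.3% without male rapamycin 3 and 20% without female rapamycin 4. In the fits that gave 3, in the order named, 8.19%, 5.15%, 7.34% and 5.85% of all genes passed. In females, 0 passed at the main settings, 7 with DESeq2, 8 with no filter and 4 in batch 1 alone, and leaving out 1 library gave 0 to 5 (5 without female rapamycin 4, 2 without male rapamycin 2 or the library labelled male rapamycin 4). Of all genes, 0.0121%, 9.08%, 5.55% and 7.75% passed in the first of these fits, in the same order. Without female rapamycin 4, male rapamycin 2 or male rapamycin 4, 12.6%, 2.74% and 2.07% of all genes passed. In males, with no filter, 5 passed in place of 0, and 1 in the difference between the sexes (Unc13c) and 1 between the sexes on vehicle (Synpr). In the same order, 1.74%, 0.288% and 0.476% of all genes passed. Rims1 turned to 0.0518 on the log2 scale with the slope as a covariate (adjusted p = 0.978 in edgeR), and of the other values of the 8 named genes under the alternatives 132 kept direction and call, 59 lost the call and 8 gained it. The 132 include fits of Rph3a and Syt1, which did not pass at the main settings and so kept the lack of a call. The causes were not tested.

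With a replicate block in place of batch, 3 passed in both sexes (Rims2, Syn3 and Unc13a) and 0 in the other comparisons. In that edgeR fit of both sexes, Pclo (-0.36, adjusted p = 0.0531), Rims1 (-0.32, adjusted p = 0.0805) and Sv2a did not pass. The labels do not say whether equal numbers mark paired libraries. Of 21 pairs that share a number, 18 had correlated deviations over 0.1 (range over all pairs -0.157 to 0.675), and 12 of 16 libraries correlated best with their own number. Every library numbered 4 or 5 was of batch 2 and all others were of batch 1. The deviations were from the group means, with batch not removed. These values therefore cannot tell a shared number apart from a shared batch, and the main tests did not use the number. Female rapamycin libraries are numbered 1, 2, 4 and 5 in the labels. Syn3 had the fewest read pairs of the 8 named genes, at 87 to 263 per library.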
